A study of Bos taurus with 16 samples.

Results

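The 10 genes of the immediate early response, EGR1, EGR2, EGR3, NR4A1, NR4A2, NR4A3, MYC, IER2, BTG2 and DUSP1, were followed in the corpus luteum of pregnant cattle. They were chosen by symbol, and each symbol matched 1 row of the table, so that 10 of its 27233 genes are described. The corpus luteum arises from the ovulated follicle and secretes the progesterone on which pregnancy depends. Glands were taken from Bos taurus on day 14, day 17, day 20 or day 23 after breeding, from 4 animals found pregnant on each day, and poly(A) RNA of the whole gland was sequenced. All cattle had been mated at estrus and then inseminated, so that every group was pregnant and the 4 days are compared only with one another. Levels are in RPKM, reads per kilobase of gene length scaled to the library's total, which allows genes of different length to be compared.

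Immediate early genes are transcribed within minutes of a signal at the cell surface, without new protein synthesis, and most of their mRNAs decay quickly. Kinases of the ERK and protein kinase A pathways act on the factors SRF, ELK1 and CREB1, which are already bound at these genes. EGR1, EGR2 and EGR3 are zinc finger transcription factors that bind GC-rich sites. NR4A1, NR4A2 and NR4A3 are orphan nuclear receptors whose activity follows their amount, and NR4A1 is known in steroidogenic cells as a regulator of steroidogenic genes. MYC is the transcription factor of growth and proliferation. IER2 is a small nuclear protein of the early response, BTG2 restrains proliferation and links to mRNA deadenylation, and DUSP1 is the phosphatase that switches off MAP kinases. In cattle, prostaglandin F2 alpha, the hormone that ends luteal life, is known to induce EGR1 in luteal tissue.

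The 16 libraries held 28.7 to 44.6 M (mega) reads, recovered from the RPKM steps, with a median of 33.9 M, and 12614 to 13012 genes reached an RPKM of 1. Of 8 markers of luteal steroidogenic cells 7 were found by symbol, not LHCGR, and all 7 were above 0 in every library and summed to 14900 to 21700 RPKM. The median correlation across genes was 0.975 between animals of 1 day and 0.972 between animals of different days, where genes are not independent replicates. No pair of libraries of 1 day differed by as little as counting noise would give. In the early response genes 2 animals stood apart, day 14 replicate 4 and day 20 replicate 4, and results are given with and without them. Their libraries held 31.1 and 28.7 M reads, the latter the smallest total. In whole tissue, fewer cells of a type and less RNA per cell cannot be told apart.

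DUSP1 had the highest median RPKM over the 16 animals, 59.0, followed by EGR1 with 43.5, IER2 with 31.0 and BTG2 with 30.5. NR4A1 had a median of 16.8 and MYC 15.1. NR4A2 had 3.20, while EGR3 had 1.13, EGR2 0.927 and NR4A3 0.632. The number of reads behind a value was thus large for most genes and small for a few: EGR2 rested on 15 to 165 reads a library and NR4A3 on 19 to 1191, against 3151 to 13133 for EGR1. All 10 genes passed the filter of an RPKM of 1 in at least 4 libraries. NR4A3 reached an RPKM of 1 in only 6 libraries, which were the 4 of day 20, day 14 replicate 4 and day 23 replicate 2, so that day 20 was what carried it past the filter.

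**Figure D1:**
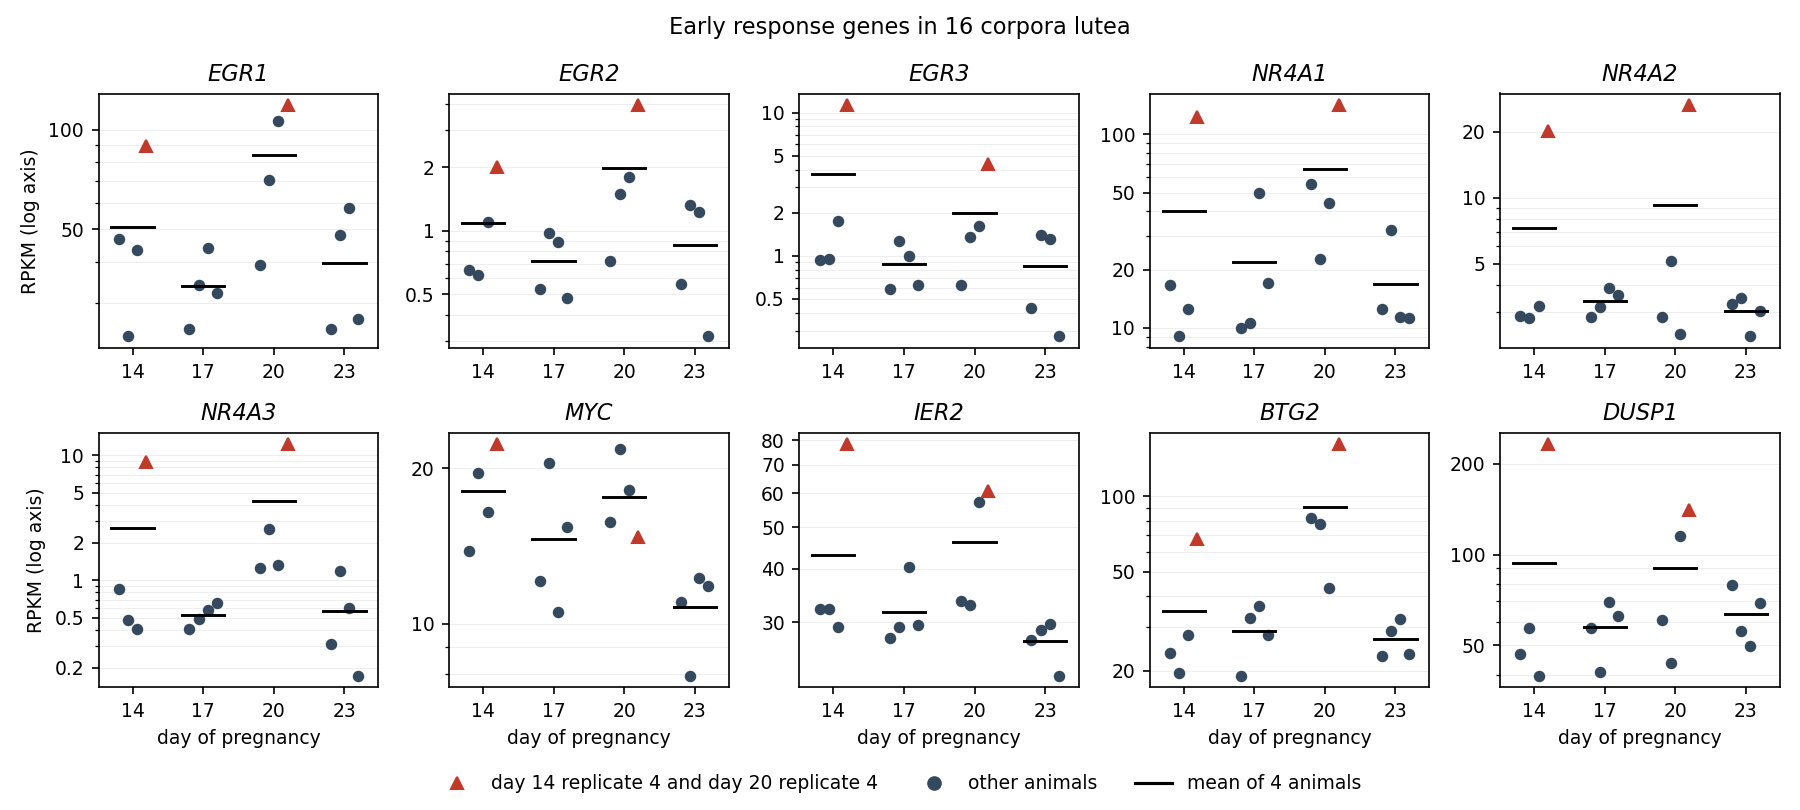
RPKM (log axis) of each gene in each of the 16 animals by day of pregnancy, with the mean of the 4 animals as a bar and day 14 replicate 4 and day 20 replicate 4 as red triangles. One of these 2 animals is the highest of the 16 in all 10 panels, and BTG2 and NR4A3 have all 4 animals of day 20 above all 4 of day 17.

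EGR1 (ENSBTAG00000010069) was the most abundant of the EGR genes in every library. On day 14 it was at 46.6, 23.8, 43.2 and 89.3 RPKM in replicates 1 to 4, and on day 17 at 24.97, 34.1, 43.8 and 32.2. On day 20 it was at 39.1, 70.5, 106 and 118.5, and on day 23 at 25.1, 48.0, 58.0 and 26.9. In all, 3 of the 4 animals of day 20 lay above all animals of day 17 and day 23, and replicate 1 lay within them. The day means were 50.8 ± 27.6, 33.8 ± 7.78, 83.6 ± 36.0 and 39.5 ± 16.1 RPKM (SD, n = 4). The order of the means was day 20, day 14, day 23 and day 17, and each neighbouring pair in it overlapped.

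EGR2 (ENSBTAG00000046409) was low throughout and had the same order of days as EGR1. Its RPKM was 0.651, 0.618, 1.10 and 2.01 on day 14 and 0.530, 0.973, 0.881 and 0.483 on day 17. It was 0.723, 1.496, 1.81 and 3.94 on day 20 and 0.560, 1.32, 1.23 and 0.316 on day 23. Replicate 4 of day 20 was the highest of the 16 and replicate 4 of day 23 the lowest, and all 4 days overlapped.

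EGR3 (ENSBTAG00000019293) differed from EGR1 and EGR2 in that its highest animal was on day 14. It was at 0.940, 0.946, 1.75 and 11.3 RPKM on day 14, so that replicate 4 was 9.31 times the mean of the other 3. On day 17 it was at 0.583, 1.27, 1.001 and 0.629, on day 20 at 0.624, 1.35, 1.61 and 4.39, and on day 23 at 0.433, 1.398, 1.31 and 0.274. Apart from replicate 4 of day 14 and of day 20, the 14 animals lay between 0.274 and 1.75 RPKM, with each day overlapping the others. Without its replicate 4, day 14 had a mean of 1.21 ± 0.463 RPKM and day 20 without its replicate 4 a mean of 1.197 ± 0.514 (SD, n = 3).

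NR4A1 (ENSBTAG00000000507) was the most abundant of the NR4A receptors and varied the most between animals of 1 day. It was at 16.6, 9.03, 12.5 and 123 RPKM on day 14 and at 10.01, 10.6, 50.01 and 17.1 on day 17. On day 20 it was at 55.5, 22.6, 44.3 and 142, and on day 23 at 12.6, 32.1, 11.4 and 11.2. Each of days 14, 17 and 23 had 1 animal well above the other 3, while on day 20 every animal lay above 3 of the 4 animals of each other day. The day means were 40.2 ± 55.1, 21.9 ± 19.0, 66.0 ± 52.3 and 16.8 ± 10.2 RPKM (SD, n = 4). Without replicate 4 the mean was 12.7 ± 3.78 on day 14 and 40.8 ± 16.7 on day 20 (SD, n = 3).

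NR4A2 (ENSBTAG00000003650) lay between 2.33 and 5.15 RPKM in 14 of the 16 animals. The exceptions were day 14 replicate 4 with 20.25 and day 20 replicate 4 with 26.5. The other 3 animals were at 2.89, 2.82 and 3.22 on day 14 and at 2.85, 5.15 and 2.39 on day 20. Day 17 held 2.85, 3.18, 3.87 and 3.60 and day 23 held 3.28, 3.502, 2.33 and 3.05, so that without those 2 animals the 4 days shared 1 range.

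NR4A3 (ENSBTAG00000001864) was the least abundant by its median and had the widest range, with the highest animal 71.0 times the lowest. It was at 0.847, 0.477, 0.404 and 8.78 RPKM on day 14 and at 0.404, 0.486, 0.577 and 0.659 on day 17. On day 20 it was at 1.25, 2.55, 1.32 and 12.2, and on day 23 at 0.309, 1.19, 0.605 and 0.172. All 4 animals of day 20 lay above all animals of day 17 and of day 23, and above 3 of the 4 of day 14. Replicate 4 was 15.2 times the mean of the other 3 on day 14 and 7.14 times on day 20.

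MYC (ENSBTAG00000008409) had its lowest mean on day 23, as EGR3, NR4A1, NR4A2, IER2 and BTG2 did, and the smallest within-day spread of the 10. It was at 13.8, 19.6, 16.4 and 22.3 RPKM on day 14 and at 12.1, 20.5, 10.5 and 15.4 on day 17. On day 20 it was at 15.7, 21.8, 18.1 and 14.8, and on day 23 at 11.03, 7.92, 12.3 and 11.8. All 4 animals of day 23 lay below all 4 of day 14 and all 4 of day 20, and they overlapped those of day 17. The day means were 18.0 ± 3.68, 14.6 ± 4.39, 17.6 ± 3.15 and 10.8 ± 1.96 RPKM (SD, n = 4). Day 20 replicate 4, the highest animal for 6 of the genes, was the lowest of its day for MYC, at 0.795 times the mean of the other 3.

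BTG2 (ENSBTAG00000015711) had its day 20 animals apart from those of 2 other days. It was at 23.6, 19.6, 27.9 and 67.6 RPKM on day 14 and at 19.1, 32.5, 36.4 and 27.8 on day 17. On day 20 it was at 81.6, 77.7, 43.1 and 161.5, and on day 23 at 22.9, 28.9, 32.2 and 23.5. Every animal of day 20 lay above every animal of days 17 and 23, and 3 of the 4 lay above day 14 replicate 4 as well. The day means were 34.7 ± 22.2, 29.0 ± 7.45, 91.0 ± 50.1 and 26.9 ± 4.48 RPKM (SD, n = 4), and without replicate 4 day 20 had 67.5 ± 21.2 and day 14 had 23.7 ± 4.12 (SD, n = 3).

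IER2 (ENSBTAG00000016354) was at 32.2, 32.2, 29.2 and 78.2 RPKM on day 14 and at 27.5, 29.2, 40.4 and 29.6 on day 17. On day 20 it was at 33.7, 33.0, 57.2 and 60.9, and on day 23 at 27.2, 28.7, 29.7 and 22.45. The 4 animals of day 20 lay above the 4 of day 23, and every other pair of days overlapped. DUSP1 (ENSBTAG00000013863) was at 46.9, 57.3, 39.7 and 232 RPKM on day 14, at 57.2, 40.8, 69.9 and 62.8 on day 17, at 60.7, 43.6, 115 and 141 on day 20, and at 79.2, 56.0, 49.9 and 69.2 on day 23. Its days overlapped in every pairing, and its highest value, in day 14 replicate 4, was 4.84 times the mean of the other 3 animals.

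Over all 16 animals, the early response genes varied between animals of the same day more than most genes did. The within-day SD of log2(RPKM + 1) was 1.16 for NR4A1, and 99.6% of the 13361 tested genes had a smaller one. NR4A2 with 0.93 and NR4A3 with 0.92 each exceeded 99.2% of genes, EGR3 with 0.78 exceeded 98.5%, DUSP1 with 0.73 exceeded 98.2%, EGR1 with 0.62 exceeded 96.9% and BTG2 with 0.59 exceeded 96.2%. EGR2 (0.44, above 91.6%), IER2 (0.43, above 91.1%) and MYC (0.30, above 80.5%) were closer to the rest, and the median over all tested genes was 0.18. For genes near an RPKM of 1, the added 1 narrows this spread. Without the 2 animals that stood apart, NR4A1 (0.76, above 98.4% of genes) and EGR1 (0.54, above 95.3%) kept a wide spread. DUSP1 was then at 0.41 (above 90.5%), EGR3 at 0.36 (86.5%), BTG2 at 0.35 (86.2%), EGR2 at 0.31 (82.0%), MYC at 0.30 (80.4%) and NR4A3 at 0.29 (79.7%). IER2 at 0.26 (74.3%) and NR4A2 at 0.24 (71.8%) came closest to the median of all genes, which stayed at 0.18.

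**Figure D2:**
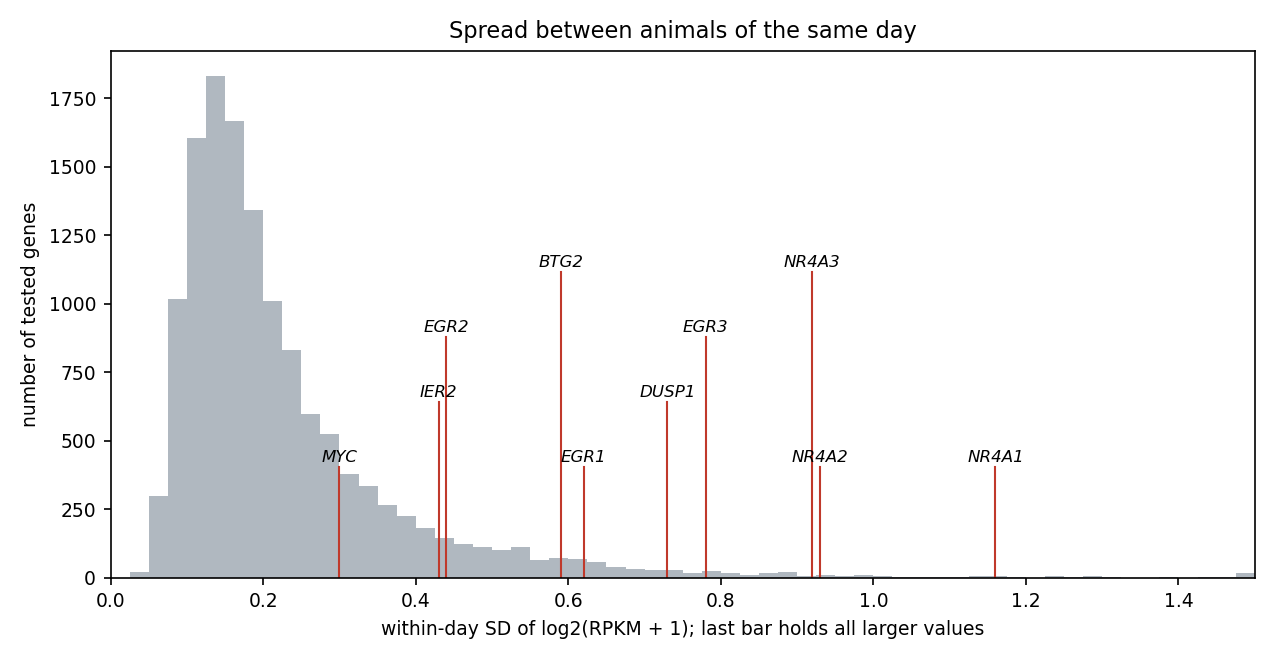
Histogram of the within-day SD of log2(RPKM + 1) over the 13361 tested genes (grey bars, number of genes per bin), with the 10 early response genes as red lines whose heights serve only to separate the names. MYC at 0.30 is the one nearest the bulk of genes, whose median is 0.18, and NR4A1 at 1.16 is the farthest.

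The study followed mRNA over early pregnancy, and day 20 was first set against day 17. All 10 genes had a positive log2 fold change on the scale of log2(RPKM + 1), with a median of 0.68, where all tested genes had a median of -0.025 and 42.9% were positive. The 10 genes share the same animals, and most of them varied together across these. Counts of them, here and in each comparison below, are thus not counts of independent results. BTG2 had 1.5 ± 0.37 (SE, adjusted p = 0.40 in limma) and NR4A1 1.55 ± 0.73 (adjusted p = 0.62). NR4A3 had 1.37 ± 0.58 (adjusted p = 0.57), EGR1 1.19 ± 0.39 (adjusted p = 0.45) and EGR2 0.71 ± 0.29 (adjusted p = 0.55). The fold changes of NR4A2 (0.65), EGR3 (0.55), DUSP1 (0.51), IER2 (0.49) and MYC (0.28) were smaller, with adjusted p of 0.70 to 0.83. None of the 10 passed the threshold of 0.05 after adjustment over all genes (0.0% of genes passed), and 4 of 10 were at an unadjusted p under 0.05, where 8.17% of all genes were, as they also were by voom on the recovered reads. For 2 genes, NR4A3 and BTG2, all animals of day 20 lay above all of day 17, which held for 1.37% of genes. NR4A3 was tested only because of its day 20 levels, so that it does not count here, and BTG2 alone is read against that share. NR4A3 was also among the 4 of 10 in limma (unadjusted p = 0.033) and entered the median, and it does not count there either. Without day 20 replicate 4, NR4A2 was at -0.02, the other 9 were positive with NR4A3 at 0.79 and EGR3 at 0.22, the median was 0.39, and 2 of 10 stayed at an unadjusted p under 0.05 (7.78% of genes).

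Day 23 against day 20 showed the opposite sign for all 10 genes, and the 2 comparisons share the day 20 animals. The median log2 fold change was -0.74, where that of all tested genes was -0.017 and 44.9% were positive. BTG2 was at -1.58 ± 0.37 (adjusted p = 0.50 in limma), NR4A1 at -1.74 ± 0.73 (adjusted p = 0.67), NR4A3 at -1.38 ± 0.58 (adjusted p = 0.67) and EGR1 at -1.03 ± 0.39 (adjusted p = 0.63). NR4A2 (-0.77), IER2 (-0.70), MYC (-0.66), EGR2 (-0.62), EGR3 (-0.60) and DUSP1 (-0.37) were at smaller values, and MYC had the narrowest interval of them, -1.08 to -0.25. None of the 10 passed after adjustment (0.0% of genes passed), 7 of 10 were at an unadjusted p under 0.05 (7.0% of genes), and voom had 6 of 10 there. NR4A3, MYC, IER2 and BTG2 had all 4 animals of day 23 below all 4 of day 20, which held for 2.89% of genes, and of these NR4A3 again owed its place among the tested genes to day 20. NR4A3 was also among the 7 of 10 in limma (unadjusted p = 0.032) and entered the median, and it counts in neither. Without day 20 replicate 4, all 10 fold changes were negative, with a median of -0.65, but NR4A3 was at -0.80, NR4A2 and DUSP1 at -0.10 and EGR3 at -0.27, and 2 of 10 were at an unadjusted p under 0.05 (5.3% of genes). Without both animals that stood apart, the median was also -0.65 and the count was 6 of 10 (5.34% of genes). Day 14 replicate 4 is in neither of these days, so that leaving it out as well changed only the spread. Both animals were singled out for high levels of these genes, and the spread narrows once they are left out. The count of 6 thus supports nothing.

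Day 20 against day 14 gave positive fold changes for 8 of the 10 genes, with a median of 0.32 against -0.015 for all tested genes, of which 45.2% were positive. BTG2 stood highest at 1.38 ± 0.37 (adjusted p = 0.25 in limma), ahead of NR4A1 at 1.22 ± 0.73 (adjusted p = 0.73), EGR1 at 0.74 ± 0.39 (adjusted p = 0.68) and NR4A3 at 0.68 ± 0.58 (adjusted p = 0.84). EGR2 was at 0.46, DUSP1 at 0.19, NR4A2 at 0.18, IER2 at 0.17, MYC at -0.03 and EGR3 at -0.31, each with an interval that included 0. None passed after adjustment (0.0% of genes), 1 of 10, BTG2, was at an unadjusted p under 0.05 (8.11% of genes, and 1 of 10 by voom), and no gene had all animals of day 20 above all of day 14 (2.33% of genes did). Without replicate 4 of day 14 all 10 fold changes were positive, with a median of 0.77, NR4A1 was at 2.02 (adjusted p = 0.43), BTG2 at 1.76 (adjusted p = 0.20) and NR4A3 at 1.34 (adjusted p = 0.58), and 7 of 10 were at an unadjusted p under 0.05 (6.71% of genes). Without replicate 4 of day 20, 7 of 10 were positive with a median of 0.07. Without both, 9 of 10 were positive with a median of 0.43, BTG2 was at 1.43 (adjusted p = 0.40), NR4A1 at 1.56, EGR1 at 0.85 and NR4A3 at 0.76, and 4 of 10 were at an unadjusted p under 0.05 (5.17% of genes). The 10 genes include NR4A3, which day 20 carried past the filter. The animals left out were singled out for high levels of these genes. The fold changes and counts without them thus describe that choice and support nothing.

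**Figure D3:**
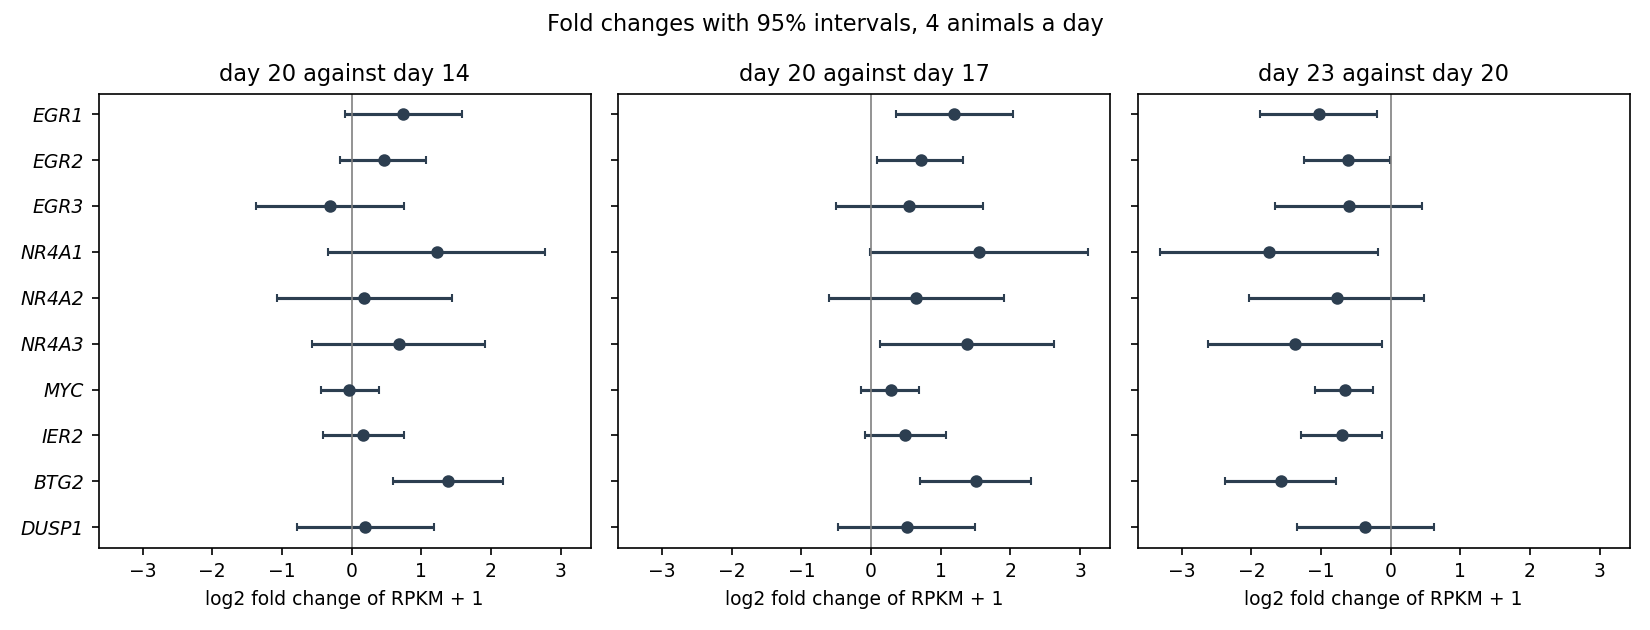
Log2 fold change on the scale of log2(RPKM + 1) of each gene (points) with its 95% interval from limma (bars) in 3 pairs of days (panel titles), 4 animals a day. All points lie above 0 in the middle panel and below 0 in the right panel, and the intervals of NR4A1 are the widest. The intervals are not adjusted for the 13361 genes tested.

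On day 23 against day 14, EGR3 was at -0.91 ± 0.50 (adjusted p = 0.48 in limma), NR4A3 at -0.70 ± 0.58 (adjusted p = 0.66) and MYC at -0.69 ± 0.20 (adjusted p = 0.16). MYC was the 1 gene of the 10 with all 4 animals of day 23 below all of day 14, which held for 4.81% of genes. It was also the 1 gene at an unadjusted p under 0.05 (1 of 10, near the 12.6% of all genes, and 1 of 10 by voom). IER2 was at -0.53 ± 0.27 (adjusted p = 0.45). All 10 fold changes were negative, with a median of -0.53 against -0.026 for all tested genes, and none passed after adjustment (0.0% of genes). Without day 14 replicate 4 the sign held for MYC (-0.59, adjusted p = 0.34), IER2 (-0.21), EGR3 (-0.29) and NR4A3 (-0.04), and 6 of 10 were positive with a median of 0.02.

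The 2 remaining pairs of days had 0 of 10 genes at an unadjusted p under 0.05. On day 17 against day 14, 0 of 10 genes were positive with a median of -0.33 against 0.013 for all tested genes, and without day 14 replicate 4 the count was 5 of 10 and the median -0.01. None passed in limma (0.0% of genes), and 7.57% of all genes were at an unadjusted p under 0.05. On day 23 against day 17, 3 of 10 were positive with a median of -0.07 against -0.038 for all tested genes, none passed (0.0% of genes), and 11.7% of all genes were at an unadjusted p under 0.05. By voom the count was 0 of 10 in both pairs as well. Over the 4 days together, the moderated F test of limma called none of the 10 (0.0% of genes), and 3 of 10, BTG2, MYC and EGR1, were at an unadjusted p under 0.05 (11.7% of genes, and 3 of 10 by voom). Their adjusted p were 0.21 for BTG2, 0.27 for MYC and 0.40 for EGR1, and DUSP1 had the largest, 0.89. In the authors' deposited table, whose headers do not name the comparison, BTG2 had an adjusted p of 0.000312, EGR1 0.0661, MYC 0.0789 and NR4A3 0.0801, and the other 6 of the 10 genes had 0.246 to 0.796.

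Day 14 replicate 4 and day 20 replicate 4 shared their high early response levels although they came from different days. The pair was singled out for these levels, so that the counts that follow describe the choice and support nothing. One of the pair was the highest of the 16 animals for 10 of the 10 genes, and both were the highest 2 for 7, the exceptions being EGR1, MYC and BTG2. Among all 13361 tested genes, 1 of the pair was the highest for 19.0% and both were the highest 2 for 1.53%. The ratio of day 14 replicate 4 to the mean of the other 3 animals was 15.2 for NR4A3, 9.67 for NR4A1, 9.31 for EGR3, 6.81 for NR4A2 and 4.84 for DUSP1. It was between 2.36 and 2.85 for EGR1, IER2, EGR2 and BTG2, and 1.34 for MYC. On day 20 the ratio of replicate 4 was 7.66 for NR4A2, 7.14 for NR4A3, 3.67 for EGR3, 3.47 for NR4A1, 2.94 for EGR2 and 2.39 for BTG2. DUSP1 had 1.93, EGR1 1.65 and IER2 1.48.

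**Figure D4:**
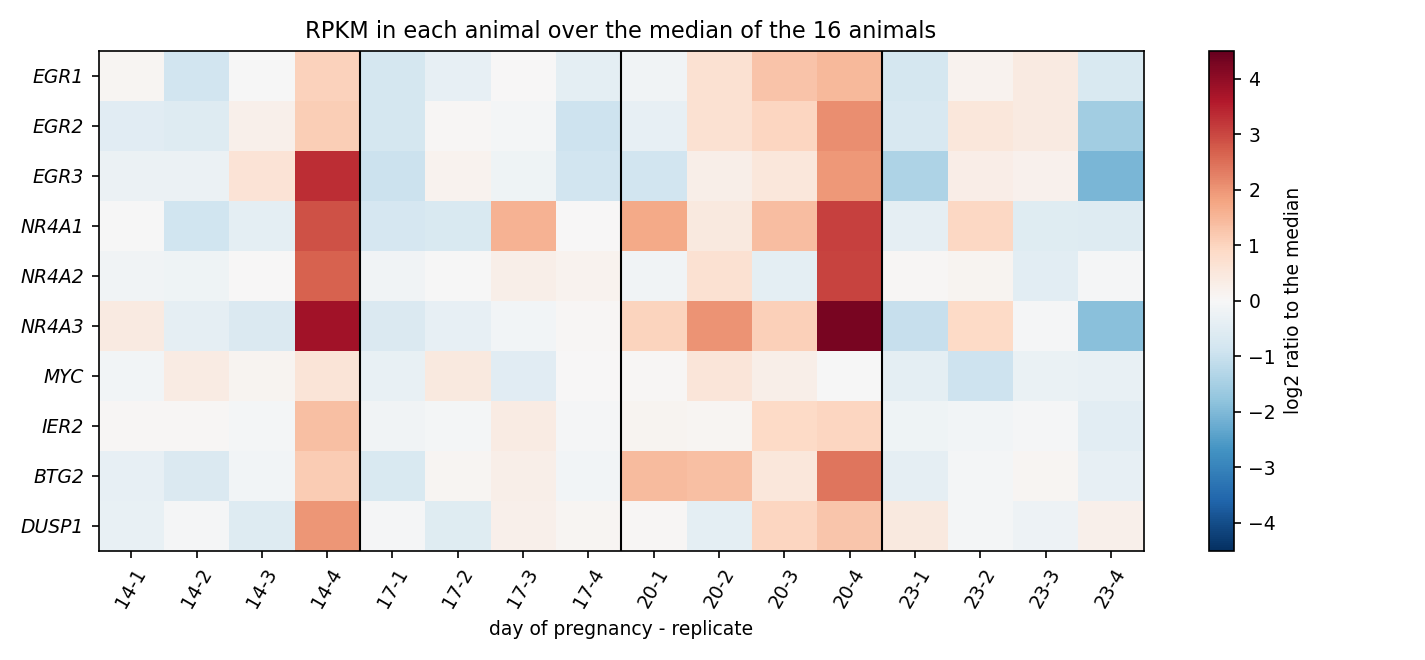
Log2 ratio of the RPKM of each gene in each animal to the median of the 16 animals, with animals labelled by day and replicate and vertical lines between days. The columns of day 14 replicate 4 and day 20 replicate 4 are red in all rows but MYC on day 20, and NR4A1, NR4A3, IER2 and BTG2 are above their median in all 4 animals of day 20.

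EGR1 and EGR2 moved together across animals. Their Pearson r over the 16 animals was 0.91 and Spearman's rho 0.90, with a permutation p of 1e-05 for each, the smallest that 100000 resamples can give (adjusted p = 0.067 for r and 0.13 for rho over 13360 genes). With day means removed r was 0.86, and without the 2 animals farthest from the median of EGR1, day 20 replicates 3 and 4, it was 0.89. EGR1 had an r of 0.81 with IER2 (permutation p = 0.00025, adjusted p = 0.15; rho 0.71, permutation p = 0.003, adjusted p = 0.30; r without the 2 animals 0.68). With NR4A3 its r was 0.80 (permutation p = 0.00013, adjusted p = 0.13; rho 0.82, permutation p = 0.0002, adjusted p = 0.23; r without the 2 animals 0.80). Its r with the other 6 genes ran from 0.29 for MYC to 0.76 for NR4A1 and BTG2 (adjusted permutation p 0.19 to 0.88; rho 0.20 to 0.80), and that with DUSP1 went from 0.55 to 0.30 without the 2 animals. No gene passed with EGR1 (0.0% of 13360 genes). A single gene at the smallest permutation p has an adjusted p of 0.13, and 3 genes must reach it before any can pass, so that the number of resamples limits what can be called.

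NR4A1 was close to IER2 and NR4A3 over all animals, but these relations leaned on the 2 animals that stood apart. Its r was 0.85 with IER2 (permutation p = 7e-05, adjusted p = 0.15; rho 0.74, permutation p = 0.0016, adjusted p = 1.0) and 0.85 with NR4A3 (permutation p = 0.00014, adjusted p = 0.15; rho 0.79, permutation p = 0.00043, adjusted p = 1.0). With BTG2 it was 0.83 (permutation p = 0.00024, adjusted p = 0.17; rho 0.80, permutation p = 0.00041, adjusted p = 1.0). Without day 20 replicate 4 and day 14 replicate 4, r was 0.67 with IER2, 0.60 with NR4A3 and 0.69 with BTG2. With NR4A2 it went from 0.76 to 0.17 and with EGR3 from 0.71 to 0.21, so that these relations rest on those 2 animals. The median r over the other 9 genes was 0.76, and 0.43 without the 2 animals, beside 0.01 and -0.05 over all tested genes.

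MYC varied apart from the others. Its r ran from 0.12 with NR4A1 to 0.43 with EGR3 (permutation p = 0.65 and 0.097, adjusted p = 0.85 and 0.38; rho 0.05 and 0.45, permutation p = 0.85 and 0.085, adjusted p = 0.94 and 0.33). Without day 23 replicate 2 and day 14 replicate 4 these were -0.01 and 0.34. With day means removed, r with the 9 genes ran from -0.29 for NR4A1 to 0.19 for EGR3. None of the other 9 genes passed with NR4A1 or with MYC.

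**Figure D5:**
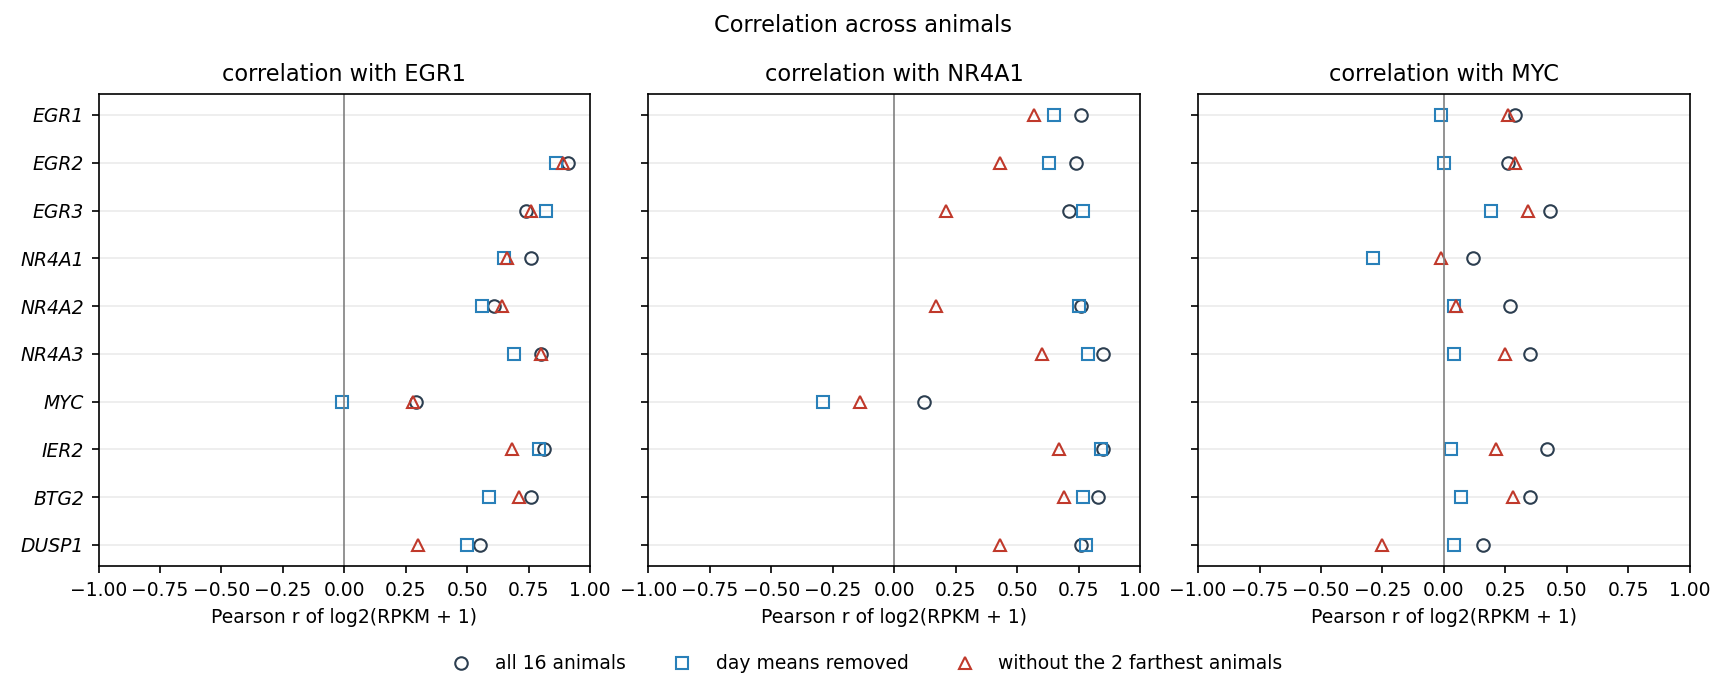
Pearson r of log2(RPKM + 1) across animals of each gene with EGR1, NR4A1 and MYC: over all 16 animals (circles), with day means removed (squares) and without the 2 animals farthest from the median of the gene in the title (triangles). EGR2 stays near 0.9 with EGR1 in all 3, whereas NR4A2 goes from 0.76 to 0.17 with NR4A1.

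Outside the 10, the genes most like NR4A1 in these animals were SIK1, JUNB, RNF6, PLK2 and BHLHE40. SIK1, the salt-inducible kinase that restrains CREB coactivators, had an r of 0.95 with NR4A1 (permutation p = 1e-05, adjusted p = 0.045; rho 0.82, permutation p = 0.0002, adjusted p = 1.0) and 0.91 without the 2 farthest animals. It was at 76.0 RPKM in day 14 replicate 4 and 152 in day 20 replicate 4, with day means of 31.2 ± 29.9, 20.8 ± 12.3, 60.7 ± 61.2 and 14.6 ± 3.76 (SD, n = 4). BHLHE40, a transcriptional repressor, had 0.85 (permutation p = 1e-05, adjusted p = 0.045; rho 0.75, permutation p = 0.0012, adjusted p = 1.0; 0.68 without the 2 animals). RGS2, a regulator of G protein signalling, named because it was the third of the 3 genes that passed (0.0225% of 13360), had 0.82 (permutation p = 1e-05, adjusted p = 0.045; rho 0.79, permutation p = 0.00049, adjusted p = 1.0; 0.74 without the 2 animals). Of 2 rows with the symbol RGS2 this is the less abundant one (ENSBTAG00000020620, mean 3.96 RPKM). The other (ENSBTAG00000034366, mean 7.75 RPKM) also had an r of 0.82 and did not pass, and reads may be split between them. All 3 that passed were at the smallest permutation p, and 3 is the fewest at that p with which any can pass. The 3 calls thus rest on the number of resamples. None passed by Spearman's rho.

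The genes most like EGR1 were FOS, DUSP2, JUND, LSG1 and BHLHE40, with r of 0.83 to 0.86, adjusted p of 0.067 to 0.10 by permutation, rho of 0.76 to 0.81, and r of 0.76 to 0.86 without the 2 farthest animals. FOS, the partner of JUN in the factor AP-1, had day means of 37.9 ± 54.3, 10.3 ± 4.35, 56.3 ± 47.8 and 20.1 ± 22.4 RPKM (SD, n = 4). The genes most like MYC were COMMD8, PAPSS1, ALDH1A2, PPFIA1 and IFNAR1, none of them among the early response genes listed. Their r was 0.86 to 0.90, with an adjusted permutation p of 0.055 for each, rho of 0.88 to 0.92 with an adjusted permutation p of 0.022 to 0.024, and r of 0.81 to 0.87 without the 2 farthest animals. With MYC no gene passed by r (0.0% of 13360 genes) and 67 passed by rho.

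The other early response genes were counted in the same way. Of 38 tested members of that list, 29 had a positive fold change on day 20 against day 17 (median 0.34) and 29 on day 20 against day 14 (median 0.27), and 32 had a negative one on day 23 against day 20 (median -0.42). Among all tested genes 42.9%, 45.2% and 44.9% were positive in these 3 comparisons. None passed in limma in either direction in any comparison, while 10 were higher at an unadjusted p under 0.05 on day 20 against day 17, 7 on day 20 against day 14, and 14 were lower on day 23 against day 20. In either direction, 8.17%, 8.11% and 7.0% of all genes were at such a p. Without both animals that stood apart, these counts were 10, 13 and 13, and the medians 0.23, 0.37 and -0.25. Of all genes, 8.03%, 5.17% and 5.34% were then at such a p in either direction. The most abundant were FOSL2, a member of the FOS family, with day means of 203 ± 36.6, 195 ± 31.9, 171 ± 31.0 and 243 ± 47.8 RPKM, JUND with 124 ± 42.5, 102 ± 17.7, 155 ± 42.9 and 121 ± 22.1, and ZFP36L1, which promotes decay of AU-rich mRNAs, with 94.0 ± 28.2, 105 ± 18.1, 132 ± 51.6 and 95.6 ± 19.9 (SD, n = 4). FOSL2 thus had its lowest mean on day 20, unlike JUND and ZFP36L1. Day 14 replicate 4 or day 20 replicate 4 was the highest animal for 23 of the 38 genes, where it was for 19.0% of all tested genes. The pair was singled out for the 10 genes, and SIK1, JUNB and FOS of this list varied with some of those. This count, and the counts without the pair, thus support nothing either.

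The kinases and factors upstream of the early response had medians near 0 in each comparison. Of 28 tested, 0 passed in either direction, and the medians were 0.04 on day 20 against day 17, -0.04 on day 20 against day 14 and -0.03 on day 23 against day 20. At an unadjusted p under 0.05, 2 were higher and 2 lower on day 20 against day 17. The count was 0 on day 20 against day 14, and 1 higher and 1 lower on day 23 against day 20. Beside these and the lists that follow, 8.17%, 8.11% and 7.0% of all genes were at such a p in either direction. PRKACA, the catalytic subunit of protein kinase A, was at 58.4 ± 2.97, 56.7 ± 6.16, 57.8 ± 1.63 and 54.6 ± 2.94 RPKM (SD, n = 4) on the 4 days. MAPK3, a kinase of the ERK pathway, was at 39.8 ± 3.54, 42.0 ± 0.866, 38.2 ± 3.10 and 38.0 ± 2.44. These are mRNA levels and carry no measure of kinase activity.

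Feedback inhibitors of ERK and other MAP kinases, the group to which DUSP1 belongs by function, had medians of -0.03, -0.11 and -0.13 in the same 3 comparisons, and 0 of 16 passed in either direction (1 to 3 of them at an unadjusted p under 0.05 in a direction). ERRFI1, an inhibitor of the EGF receptor, was at 56.0 ± 8.17, 65.3 ± 15.2, 77.7 ± 17.3 and 74.7 ± 21.2 RPKM (SD, n = 4). SPRY2, an inhibitor of receptor tyrosine kinase signalling, was at 33.1 ± 3.88, 41.8 ± 11.6, 26.0 ± 2.89 and 36.2 ± 6.52, with its lowest mean on day 20. SPRY1, of the same family, was at 29.7 ± 9.19, 28.5 ± 5.64, 24.7 ± 2.25 and 20.9 ± 0.523.

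Corepressors and known targets of EGR1 had medians of 0.05, 0.10 and -0.34, and 0 of 13 passed in either direction (up to 2 at an unadjusted p under 0.05). THBS1, an inhibitor of angiogenesis, was at 58.7 ± 30.1, 83.8 ± 74.7, 97.3 ± 20.0 and 81.2 ± 44.6 RPKM (SD, n = 4), the growth factor PDGFB at 41.5 ± 20.9, 33.1 ± 4.09, 34.6 ± 6.62 and 26.8 ± 2.08, and the cytokine TGFB1 at 28.9 ± 4.14, 28.2 ± 2.36, 24.5 ± 1.2 and 23.2 ± 1.35. Partners and steroidogenic targets of the NR4A receptors had medians of -0.01, 0.02 and 0.10, and 0 of 11 passed (up to 1 at an unadjusted p under 0.05). STAR, which carries cholesterol into mitochondria and is a known NR4A1 target, was at 2340 ± 537, 2340 ± 647, 3100 ± 778 and 3560 ± 728 RPKM, so that its highest mean was on day 23, where NR4A1 had its lowest. CYP11A1 and HSD3B1, the next enzymes of progesterone synthesis, had day means from 4050 to 4420 and from 4760 to 5830 RPKM.

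The MYC network had medians of 0.06, 0.03 and -0.11, and 0 of 14 tested genes passed in either direction (up to 2 at an unadjusted p under 0.05). ODC1, the polyamine enzyme and classical MYC target, was at 66.1 ± 18.7, 60.3 ± 13.4, 87.7 ± 21.4 and 53.2 ± 16.8 RPKM (SD, n = 4), lowest on day 23 as MYC was. NCL, the nucleolar protein nucleolin, was at 78.0 ± 5.57, 77.0 ± 6.03, 80.4 ± 4.64 and 73.6 ± 5.61, and MLX, a partner of the MYC-related factors, at 40.6 ± 3.83, 43.9 ± 3.85, 41.1 ± 2.75 and 45.2 ± 5.61. Among BTG2's relatives and the CCR4-NOT deadenylase, medians were -0.03, -0.07 and -0.03, and 0 of 10 passed (up to 1 at an unadjusted p under 0.05). BTG1 was at 49.4 ± 12.1, 53.2 ± 6.88, 74.6 ± 15.9 and 54.8 ± 5.81, highest on day 20 as BTG2 was, whereas TOB1 was at 70.7 ± 22.8, 66.0 ± 9.32, 63.9 ± 18.0 and 81.6 ± 9.47 and the methyltransferase PRMT1 at 38.0 ± 2.21, 36.5 ± 1.55, 35.5 ± 0.821 and 33.6 ± 1.92.

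Sums of macrophage markers were above those of days 14 and 23 in every day 20 animal and overlapped day 17. The summed RPKM of 7 macrophage and monocyte markers, all above 0 in every library, was 242 to 344 on day 20, against 127 to 190 on day 14, 94.0 to 294 on day 17 and 133 to 221 on day 23. All 7 had positive fold changes on day 20 against day 14 (median 0.74) and negative ones on day 23 against day 20 (median -0.69), and 0 of 7 passed in limma (4 of 7 at an unadjusted p under 0.05 in each of these, where 8.11% and 7.0% of all genes were). The 7 T and natural killer cell markers summed to 12.3 to 38.9 on day 20 and 9.20 to 17.9 on day 14. All 7 had positive fold changes on day 20 against day 14 (median 0.86), with 6 at an unadjusted p under 0.05 in limma. On day 23 against day 20 all 7 were negative (median -0.31), with 1 at such a p, and 0 passed in either comparison. Positive fold changes on day 20 were thus not particular to macrophage markers. The 5 neutrophil markers summed to 4.73 to 31.0 on day 20 and 5.54 to 8.37 on day 14. The part of these cells in the levels of BTG2, NR4A3 and EGR1 on day 20 was not tested.

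These markers ranked differently in the 2 animals that stood apart. Day 14 replicate 4 had 159 for macrophages, order 13 of 16 from the highest, 9.32 for T and natural killer cells (order 15) and 616 for endothelial cells (order 1). Day 20 replicate 4 had 242 (order 6), 32.7 (order 2) and 536 (order 5). Endothelial markers summed to 373 to 411 on day 23, below the 425 to 616 of all other animals. Pericyte and smooth muscle markers summed to 238 to 463, 360 to 712, 338 to 672 and 229 to 558 on the 4 days. Fibroblast markers summed to 3400 to 5850, 3460 to 7810, 3720 to 6710 and 2320 to 6630. On day 20 against day 14, 6 of 6 pericyte and smooth muscle markers (median 0.72) and 6 of 6 fibroblast markers (median 0.31) had positive fold changes. In that comparison 2 of 8 endothelial, 2 of 7 luteal steroidogenic and 0 of 2 tested red blood cell markers were positive. On day 23 against day 20 the pericyte and smooth muscle markers had a median of -0.59. Among red blood cell markers HBA and ALAS2 were below an RPKM of 1 in every library, and the list summed to 0.535 to 1.72 on day 20 and 2.72 to 23.8 on day 17. The part of these cells in the early response levels was not tested either.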

How the data were processed

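The authors deposited 1 table of RPKM values for 27233 genes in 16 libraries, and beside them p-values, raw and adjusted, for a comparison that the headers of the authors' deposited table do not name. HISAT2 2.1.0, featureCounts 1.5.3, bedtools 2.26.0, DESeq2, FastQC and the build ARS-UCD1.2 are listed in the submitters' processing notes, and a stranded mRNA kit in the labels' protocols. The strand setting of the counting was not given in the sources used here, and overlapping antisense reads cannot be told apart. RPKM scales each library to 1 total, so that a few abundant genes can shift all others. Gene values were whole multiples of 1 step per library, which gave whole reads for 27233 of 27233 genes within a tolerance of 0.001 and hence the depth. Values were tested as log2(RPKM + 1), which understates the fold change of low genes, with limma 3.58.1 in R 4.3.3 (mean-variance trend, 1 model over 16 libraries, 12 residual degrees of freedom, two-sided, Benjamini-Hochberg over 13361 genes that reached 1 RPKM in 4 or more libraries, threshold 0.05). Correlations used 100000 two-sided permutations of the animals. The tests were tried on simulated data. The p-values of limma set differences between day means against the spread between animals of the same day. Those of the correlations come from shuffling all 16 animals without regard to day, so that differences between days enter them.

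Days came from the labels, and no library was removed. The labels give no batch. The genes described and the lists were chosen with earlier results of these data known. From each pathway list the 3 genes with the highest mean RPKM are named, as none passed, except 1 that is not reported here, and for EGR1, NR4A1 and MYC the 5 genes with the highest r. Alternatives were other pseudocounts, filters, scaling, weights, a replicate block, only the days compared, voom on the recovered reads and each library left out. Leaving out day 14 replicate 4 and day 20 replicate 4 together was chosen after seeing the data. Figures were drawn with matplotlib 3.10.9.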

Additional observations from a re-analysis of the deposited data

Results flagged for a closer look

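In 10 of 40 sets of 4 animals (10 genes on 4 days), the highest or the lowest animal lay farther from the other 3 than Dixon's critical value at 95% allows, where chance gives about 1 set in 20 if values are normally distributed. RPKM values were used without a log, and all 10 were the highest animal. The rule was run on the 10 genes only, so that whether the count is particular to them was not tested. Of the 10, 6 were day 14 replicate 4: EGR3 was at 11.27 RPKM there (next animal 1.745), NR4A1 at 122.8 (16.58), NR4A2 at 20.25 (3.219), NR4A3 at 8.781 (0.8467), IER2 at 78.17 (32.24) and DUSP1 at 232.0 (57.31). In day 20 replicate 4, NR4A2 was at 26.53 (next 5.148) and NR4A3 at 12.21 (2.549). The remaining ones were NR4A1 at 32.14 in day 23 replicate 2 (next 12.58) and IER2 at 40.36 in day 17 replicate 3 (next 29.55). The sets are not independent, since the genes share animals.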

How the results depend on the processing

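None of the 10 genes passed the threshold in any comparison as reported or under the 26 alternatives, and the smallest adjusted p for any of them was 0.099. With a replicate block 0 of 10 passed as well. The labels do not say whether the replicate numbers pair the animals. Deviations of same-numbered animals had a median correlation of 0.03 (-0.23 to 0.21), and those of differently numbered animals -0.01 (-0.26 to 0.21). Such correlations over all genes cannot decide whether animals were paired or handled together. Both animals that stood apart bear the number 4, and the cause of this was not tested. The signs of the 32 log2 fold changes examined held in 808 recomputed values and turned in 15. Many of the 808 could not turn. Leaving out an animal of a day not compared, another filter, the replicate block and only the days compared all leave the fold change unchanged. The 808 are thus no measure of robustness. Of the 32, 30 are comparisons of day 20, so that where the turns fell was set by that choice. Outside these, on day 23 against day 14 NR4A1 ran from -0.93 to 0.28, BTG2 from -0.40 to 0.17 and DUSP1 from -0.45 to 0.39, and on day 17 against day 14 NR4A1 ran from -0.82 to 0.47. Leaving out 1 animal, EGR3 on day 20 against day 14 ran from -0.641 to 0.314, NR4A2 from -0.487 to 0.787, MYC from -0.141 to 0.076 and DUSP1 from -0.08 to 0.759, and NR4A2 on day 20 against day 17 from -0.015 to 0.993. MYC on day 20 against day 14 was 0.019 with array weights and 0.151 without both animals that stood apart, where NR4A2 on day 20 against day 17 was -0.015. The number of the genes correlated with EGR1 was 0 to 2 when 1 animal was left out, with 2 without day 20 replicate 3. Over all genes, counts past the threshold were 0 in the analysis as reported and, for day 23 against day 14, 22 without day 17 replicate 3, 13 with only the days compared, 4 with array weights, 2 with the replicate block and 1 by voom; for day 20 against day 14 they were 20 with only the days compared and 32 without day 17 replicate 3, which gave 22 in the F test. The cause was not tested. EGR2 rested on 15 to 165 reads a library.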
